A study of Coregonus lavaretus with 13 samples.

Results

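The contigs described here are 91 putative long non-coding RNAs (lncRNAs) of the whitefish liver that were lowered on every day of exposure to microcystin-LR (MC-LR) and had no read in any exposed fish of day 6. They were chosen by the raw read counts: a contig had to be listed on all 3 days, its mean over the MC-LR fish had to lie below its mean over the control fish on each day, and the 3 fish of day 6 had to hold 0 reads. Of 4729 contigs listed on any day, 457 were listed on all 3 days, and 342 of these were lowered on all 3. The members are 91 of the 342, and the other 251 kept at least 1 read on day 6.

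LncRNAs are transcripts that carry no long open reading frame and can act in the nucleus or the cytoplasm, among other ways by guiding chromatin proteins, by binding small RNAs or by being transcribed near another gene. Many are made in one tissue or cell type and at low levels. MC-LR is a cyclic peptide toxin of cyanobacteria that enters hepatocytes through organic anion transporters and inhibits the serine/threonine protein phosphatases PP1 and PP2A, and in fish as in mammals the liver is its main target.

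The livers came from 13 juvenile whitefish (Coregonus lavaretus), 1 library per fish. The control group was 4 fish killed 1 day after an injection of phosphate-buffered saline (PBS). The exposed groups were 3 fish each, taken on day 1, day 6 or day 9 after MC-LR was given intraperitoneally at 100 μg per kg, repeated after 7 days, so that the fish of day 9 had been injected again and those of days 1 and 6 had not. The same 4 PBS fish served as controls for all 3 days, and groups were kept in separate tanks, so that tank and toxin cannot be told apart on any day, nor time in the experiment on days 6 and 9, nor the repeated injection on day 9. Poly(A) RNA was sequenced, and the contigs come from a de novo assembly with no gene name or genome position, so no role can be given for any member and the liver identity could not be checked by marker genes. In whole liver fragments, fewer cells of a type and less RNA per cell cannot be told apart.

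In the PBS livers the members were expressed at modest levels. Their mean normalised count, which is the read count divided by the size factor of the library, ran from 13.7 to 1570 with a median of 51.3 and quartiles of 32.3 and 104. The 251 lowered contigs that kept reads on day 6 had a median of 124 in the same fish. All 91 members had reads in all 4 PBS fish. Summed over the members, the PBS fish held 10808, 10257, 9547 and 10331 reads, and the normalised sum was 9592 ± 645 (SD, n = 4). The most abundant member alone gave 16.3% of the PBS reads and the top 5 gave 35.9%.

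Control fish differed in single members much more than in their sum. The closeness of the sums rests in part on the most abundant member, without which they lay further apart, at 7392, 8919, 8975 and 6804 normalised counts. For single members, the coefficient of variation over the 4 PBS fish had a median of 45.5% and ran from 7.51% to 103%. The fish with the highest level exceeded that with the lowest by a median of 2.76-fold. This ratio was above 5 in 19 members and under 2 in 22. The steadiest member, DN113667_c3_g1_i1, had 80, 99, 85 and 83 reads in the PBS fish. The largest ratio, 20.3, was that of DN92204_c1_g3_i1 with 7, 29, 140 and 154 reads, and both were picked after their values were seen. Other members were low in the fourth PBS fish instead: DN95730_c6_g1_i3, also picked after its values were seen, had 250, 292, 132 and 19 reads. The fourth PBS fish was the lowest of the 4 for 36 members, against 23, 18 and 14 for the other 3 fish in order, and no single PBS fish was low throughout.

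The member with the highest PBS level was DN89469_c3_g1_i4. It had 3237, 286, 387 and 2762 reads in the PBS fish, so that 2 of the controls lay about an order of magnitude above the other 2. In the MC-LR fish it had 9, 72 and 4 reads on day 1, none on day 6, and 7, 5 and 41 reads on day 9. Even the highest exposed fish stayed below the lowest PBS fish. The second member, DN105991_c2_g1_i1, was steadier in the controls, with 589, 970, 544 and 467 reads. Its exposed fish had 6, 5 and 2 reads on day 1, none on day 6, and 38, 0 and 27 reads on day 9. Its second fish of day 9 had no read, as on day 6, while the other 2 fish of day 9 were above all 3 fish of day 1.

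**Figure D1:**
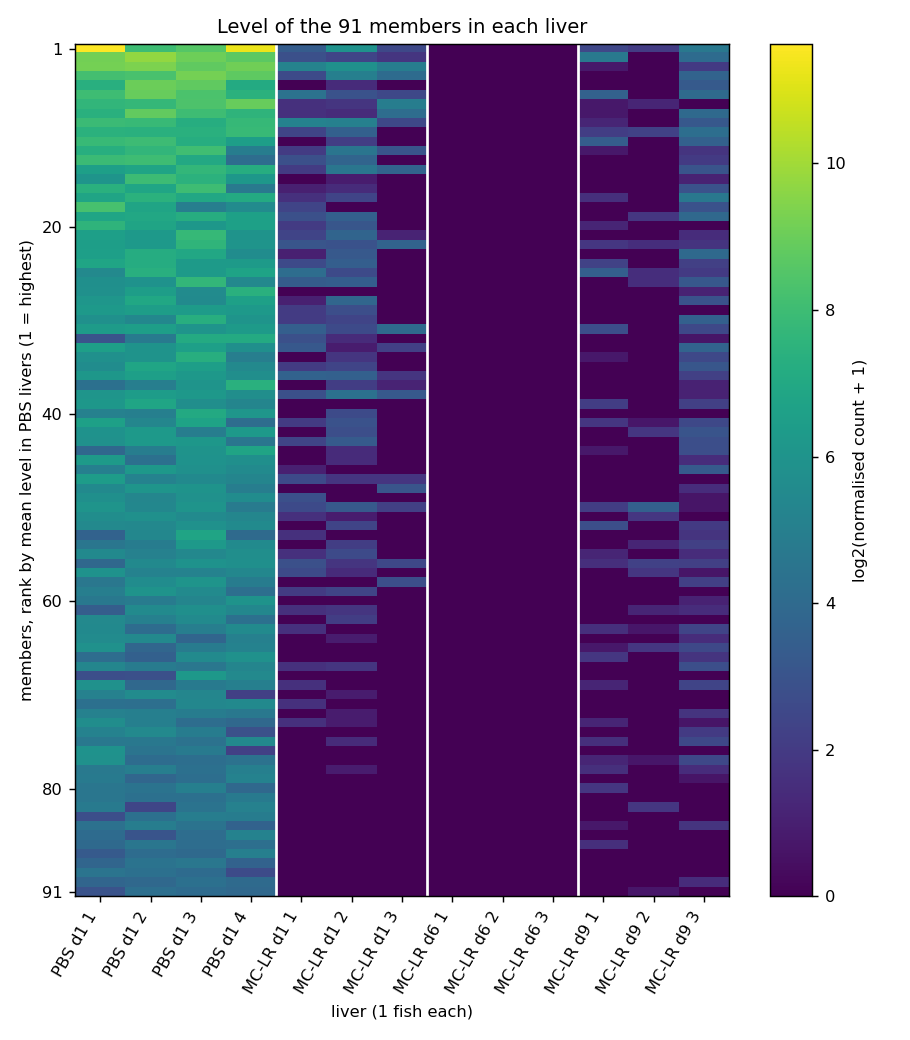
Level of each of the 91 members (rows, ordered by mean level in PBS livers) in each of the 13 livers (columns), as log2(normalised count + 1), with white lines between the groups. The PBS columns are filled throughout, the 3 columns of day 6 are empty by the choice of members, and the columns of days 1 and 9 hold scattered low values, more of them in the second fish of day 1 and the third fish of day 9 than in the other fish of these days.

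Every member lay lower in each MC-LR fish than in each PBS fish on all 3 days. The same separation held for 49.6%, 64.6% and 60.4% of all contigs listed on these days, raised ones included, and for 248, 251 and 249 of the 251 other lowered contigs. Because the members were chosen on these contrasts, their separation is a description and was not tested. Where a group held no read of a contig, 3 reads over the group were taken as the floor, which equals 1.01, 0.813 and 0.626 normalised counts on days 1, 6 and 9. Against this floor the members were at least 16.8-fold lower on day 6 than in PBS fish for the least abundant of them, at least 63.1-fold lower at the median and at least 1930-fold lower for DN89469_c3_g1_i4. The bound grows with the PBS level, so the silence of the weaker members rests on less depth than that of the stronger ones. Mates of a pair count as separate reads, so these bounds and those given below may be too high.

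The limit of 0 reads on day 6 cut through a continuous range. The 22 lowered contigs with a single read over the 3 fish of day 6 had a median of 97.4 normalised counts in PBS fish, the 25 with 2 reads had 53.0, and the 5 with 3 reads had 128. The members' own median of 51.3 lay just under that of the contigs with 2 reads. For the 52 contigs with 1 to 3 reads, the median level was 3.96% of PBS on day 1 and 1.93% on day 9, beside 2.54% and 2.24% for the members.

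The members were already low on day 1, in part by choice. Each had to be listed that day, past the authors' test against PBS, with a mean below PBS, so the size of this early loss was not tested. The summed reads of the members were 292, 590 and 161 in the 3 MC-LR fish, and the normalised sum was 331 ± 152 (SD, n = 3), or 3.45% of the PBS mean. Single fish stood at 3.16%, 5.16% and 2.03%. The 251 lowered contigs that kept reads on day 6 stood at 9.91%, 13.6% and 8.17% in the same fish. Each fish of day 1 thus kept a smaller share of the members, but the 251 were set apart by their reads on day 6, and this contrast was not tested. The 52 of them with 1 to 3 reads on day 6 lay closer, with a median level of 3.96% of PBS on day 1 beside 2.54% for the members. On day 9 their order was the other way, at 1.93% and 2.24%. The first fish of day 1 had reads for 50 members, the second for 60 and the third for 22. The second fish held 56.6% of the group's reads and was the single highest for 44 members.

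On day 1, 22 members (24.2%) had no read in any of the 3 MC-LR fish, 18 had 1 to 3 reads over the group and 51 had 4 or more. Of the 251 other lowered contigs, 11 (4.38%) were without reads that day. These were set apart by having reads on day 6, and their PBS median was 124 against 51.3 for the members. The 2 shares are therefore not matched for depth, and their difference was not tested. Silence on day 1 followed the PBS level: in 4 bins of 23, 23, 23 and 22 members, from the highest to the lowest PBS level, 0, 2, 4 and 16 were silent. Depth and the loss itself cannot be told apart here, since members of the lowest bin had only 13.7 to 31.1 normalised counts in the controls. The silent members were at least 13.6-fold lower than in PBS fish, with a median bound of 21.7-fold. The strongest of them, DN87225_c5_g1_i3, had a bound of 88.1-fold, and it was named after its values were seen.

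Some members kept a clear residue on day 1. The largest share was 16.5% of the PBS mean, in DN102385_c3_g2_i1, which had 67, 95, 73 and 58 reads in the PBS fish and 6, 23 and 7 in the fish of day 1. DN80637_c0_g1_i3, singled out after its values were seen, had 245, 257, 156 and 243 reads in the PBS fish and 33, 39 and 4 on day 1, a mean of 11.4% of PBS. Its first and second exposed fish were far above the third, yet all 3 stayed below every control.

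**Figure D2:**
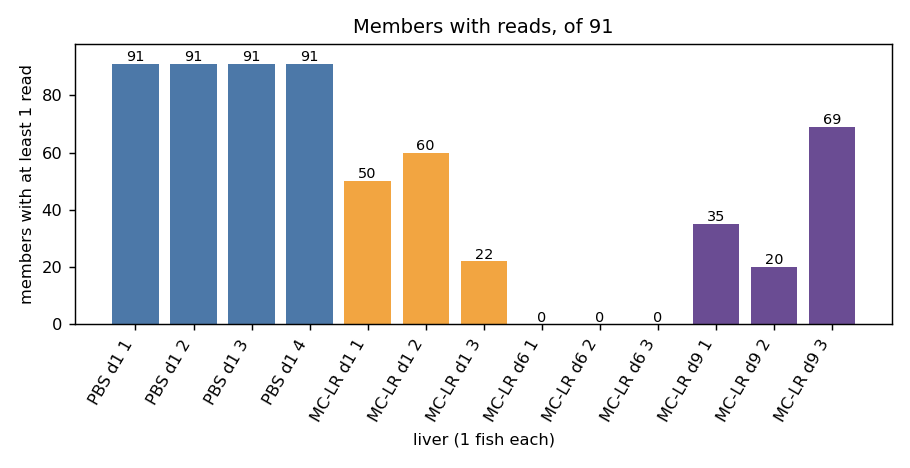
Number of members with at least 1 read in each of the 13 livers (bars, of 91 members, 1 fish per bar). All 91 were seen in every PBS fish, between 22 and 60 on day 1, none on day 6, and between 20 and 69 on day 9.

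On day 9 the members had low levels. The choice of members fixed day 6 at 0 reads, so no change from day 6 to day 9 can be read from them. The summed reads were 186, 77 and 660, and the normalised sum was 187 ± 180 (SD, n = 3), or 1.95% of the PBS mean, with single fish at 1.27%, 0.510% and 4.07%. The third fish held 71.5% of the group's reads and was the single highest for 57 members. It had reads for 69 members, against 35 and 20 in the first and second fish, and for 32 members it was the only fish of day 9 with a read. The 251 other lowered contigs also stood highest in that fish, at 5.85%, 4.75% and 12.0% of PBS, after 4.73%, 3.41% and 3.80% on day 6. Without the third fish the members' normalised sum on day 9 was 85.4. With libraries scaled by clean reads the sums were 270 on day 1 and 276 on day 9, or 2.82% and 2.87% of PBS, so the order of the 2 days depends on the scale.

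Of the 91 members, 15 (16.5%) had no read in any fish of day 9, 18 had 1 to 3 reads over the group and 58 had 4 or more. Among the 251 other lowered contigs, 7 (2.79%) were without reads on day 9. As for day 1, these contigs were set apart by their reads on day 6 and were more abundant in PBS fish, so the shares are not matched for depth. In the same bins, from high to low PBS level, 0, 2, 4 and 9 members were silent. With the third fish left out, 47 members were silent on day 9, and with the second fish of day 1 left out, 38 were silent on day 1. The highest share of the PBS mean on day 9 was 9.92%, in DN86418_c5_g4_i2, singled out after its values were seen. It had 5, 17 and 1 reads on day 9, so for this member the second fish, not the third, stood highest. Each member had to be listed on day 9, past the authors' test against PBS, with a mean below PBS. The paper gives a fold-change cutoff for its calls besides the adjusted p, so the choice itself favoured low shares.

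**Figure D3:**
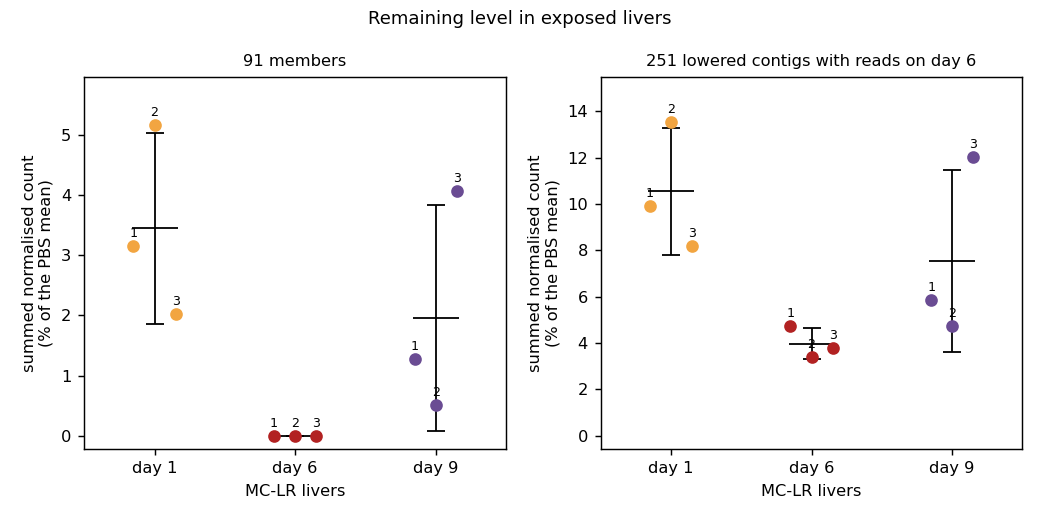
Summed normalised count as a percentage of the PBS mean in each MC-LR liver (points, numbered by fish), with the mean and SD of the 3 fish of each day (line and bars), for the 91 members (left) and for the 251 other lowered contigs (right). The members stand at 0 on day 6 by choice, at 2.03% to 5.16% on day 1 and at 0.510% to 4.07% on day 9, and the third fish of day 9 stands above the other 2 in both panels.

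Over both days, 62 members had reads on day 1 and on day 9, 14 had reads on day 9 alone, 7 on day 1 alone, and 8 had no read in any of the 9 exposed fish. The 8 were weak in the controls, at 15.3 to 32.4 normalised counts, with 4 to 75 reads per PBS fish. Reads in all 6 fish of days 1 and 9 were found for 4 members. These were DN89469_c3_g1_i4, DN93422_c6_g2_i2, DN81085_c18_g1_i1 and DN86418_c5_g4_i2, of which the last 3 are named after their values were seen.

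The day 9 fish were then compared with the day 1 fish, a difference that the choice of members did not use directly. The choice held the mean of each of these days below PBS, and listing required passing the authors' test against PBS on both. Both conditions limit how far a member could rise from one day to the other. The 483 contigs listed on both days were fitted with edgeR's quasi-likelihood test, and p-values were adjusted by Benjamini-Hochberg over all of them. At an adjusted p under 0.05, 19 of the 483 contigs (3.93%) were higher on day 9 and 15 (3.11%) were lower. Of the members, 0 were called higher and 3 (3.30%) were called lower. Among the 251 other lowered contigs, 4 (1.59%) were called higher and 1 (0.398%) lower. The 141 contigs of the fit that were not lowered on all 3 days had 15 (10.6%) higher and 11 (7.8%) lower. The members' share called lower was thus near that of all contigs and above that of the 251. It rests on 3 contigs, and the difference was not tested. At an unadjusted p under 0.05 in edgeR, 3 members were higher and 14 lower, beside 47 (9.73%) and 63 (13.0%) of all contigs. DESeq2 called 0 members higher and 9 lower at its own adjusted p under 0.05, beside 38 (7.87%) and 43 (8.90%) of all contigs. The median log2 fold change was 0 over the members and 0 over all 483 contigs, where the 8 members without reads on either day sit at 0. The group mean was higher on day 9 in 40 members and lower in 43. The direction of this balance depends on the scale: with libraries scaled by their clean reads, which shifts day 9 against day 1 by 0.88 on the log2 scale, 52 members were higher and 31 lower. The median over all contigs then lies at 0.79 and that over the members at 0.57.

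**Figure D4:**
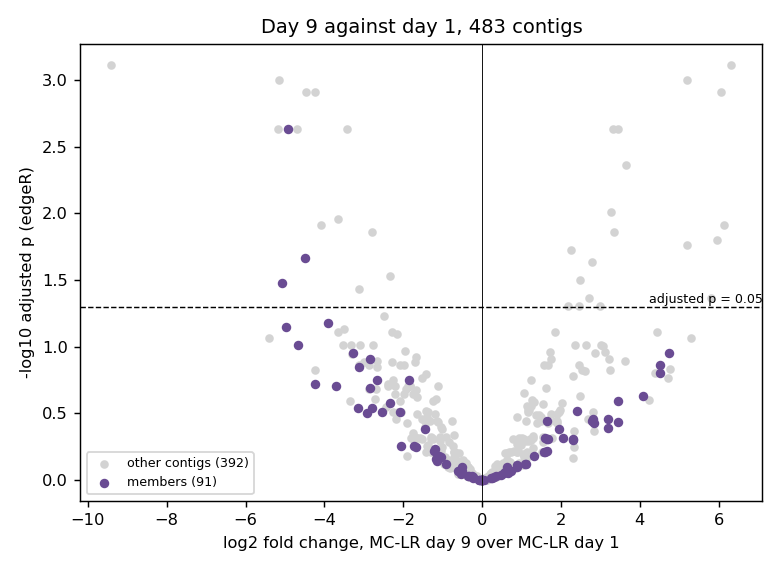
Log2 fold change of the day 9 over the day 1 MC-LR livers (horizontal) against -log10 of the adjusted p from edgeR (vertical) for 483 contigs, with the 91 members in purple and the dashed line at an adjusted p of 0.05. The 3 members above the line all lie on the side lower on day 9, and no member higher on day 9 reaches it.

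The 3 members called lower fall outside the rule by which contigs were named and were chosen after their values were seen. The first, DN83228_c13_g1_i1, held rank 3 by PBS level, with 605, 728, 448 and 615 reads in the PBS fish. The day 1 fish had 35, 67 and 24 reads, those of day 6 none, and those of day 9 had 1, 0 and 5. No fish of day 9 reached the lowest of day 1, and its mean fell from 7.25% of PBS on day 1 to 0.216% on day 9. Its log2 fold change was -4.93 (SE 0.84, edgeR, Benjamini-Hochberg adjusted p = 0.00233), and it passed under all 17 alternative settings, with an adjusted p between 1.8e-09 and 0.0152. On day 1 it alone gave 12.1% of the members' reads.

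The second, DN102385_c3_g2_i1, went from the 6, 23 and 7 reads of day 1 to 0, 0 and 2 reads on day 9. The 2 groups did not overlap, and the ratio of day 9 to day 1 was 0.0346. Its exact 95% interval, from 0.00404 to 0.134, covers counting error only. It treats reads as independent although mates of a pair count separately, so it is too narrow. Its edgeR log2 fold change was -4.49 (SE 1.08, Benjamini-Hochberg adjusted p = 0.0216), which passed in 11 of 17 alternatives with an adjusted p between 0.000972 and 0.452. Of these alternatives, 10 leave out 1 fish each and are not independent of each other. The call was lost in both edgeR fits of the 6 MC-LR fish alone, at an adjusted p of 0.138 and, with the replicate block, 0.452. The third, DN83776_c0_g1_i3, had 87, 39, 46 and 42 reads in the PBS fish, 5, 3 and 2 reads on day 1 and none on days 6 and 9. Against the floor it was at least 5.38-fold lower on day 9 than on day 1, a bound that takes the reads of day 1 as exact and may be too high. The call of this member (edgeR, Benjamini-Hochberg adjusted p = 0.0335) held in 7 of 17 alternatives. The adjusted p lay between 0.00635 and 0.814, and the call rests on 10 reads. In the edgeR fits of the MC-LR fish alone the adjusted p was 0.228 and, with the replicate block, 0.814.

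Both members highest in the controls missed the threshold in this comparison. DN89469_c3_g1_i4 had a log2 fold change of -1.22 (SE 1.13, edgeR, Benjamini-Hochberg adjusted p = 0.605), and without the second fish of day 1, which held 72 of its 85 reads that day, the value was 0.58. For DN105991_c2_g1_i1 it was 1.64 (SE 1.01, edgeR, Benjamini-Hochberg adjusted p = 0.363). In both, the reads of the 2 days overlapped.

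Among the members with a positive change, 2 had the smallest p, and both were silent on day 1. DN103109_c2_g3_i1 had 59, 15, 28 and 38 reads in the PBS fish, none on days 1 and 6, and 1, 4 and 8 reads on day 9. DN59356_c0_g1_i1 had 59, 18, 18 and 22 reads in the PBS fish, none on days 1 and 6, and 2, 1 and 8 reads on day 9. Each had a read in every fish of day 9 and in no earlier exposed fish. Against the floor of day 1 they were at least 2.63-fold and at least 2.22-fold higher on day 9, still at 7.97% and 8.01% of PBS. These bounds take the reads of day 9 as exact, so they may be too high. Neither member passed, with edgeR's Benjamini-Hochberg adjusted p at 0.111 and 0.137. Scaled by clean reads, DN103109_c2_g3_i1 passed (adjusted p = 0.0480 in edgeR), while over its 17 alternatives the adjusted p ran from 0.0480 to 0.936.

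**Figure D5:**
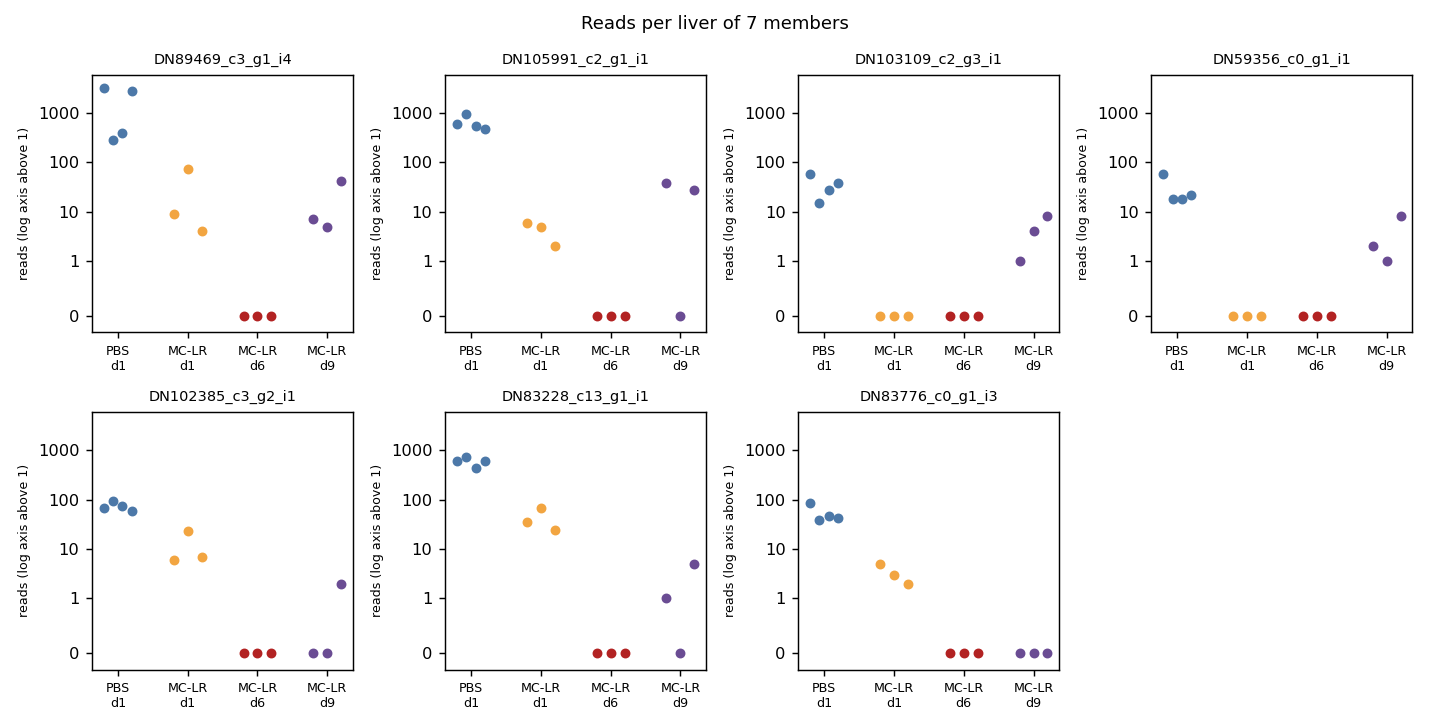
Reads per liver (points, 1 fish each, log axis above 1 read and linear below) of the 4 members named by rule (top row) and of the 3 members called lower on day 9 (bottom row), in PBS and MC-LR fish of days 1, 6 and 9. The bottom row shows day 9 points below those of day 1, and DN103109_c2_g3_i1 and DN59356_c0_g1_i1 have points above 0 on day 9 after 0 reads on days 1 and 6.

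The assembly names contigs by component, gene and isoform, and contigs of one gene share sequence. The 91 members belong to 86 assembled genes in 85 components, so few share an assembled gene. Without a genome position, separate assembled genes could not be told from pieces of 1 transcript. Reads of contigs that share sequence could have been divided between them in the counting, and their values are uncertain to that extent. The largest group was 4 members of component DN105991, in 2 genes, at ranks 2, 8, 11 and 39 by PBS level. Their summed reads were 1062, 1883, 1013 and 822 in the PBS fish, 8, 11 and 16 on day 1, none on day 6, and 59, 0 and 77 on day 9. All 4 peaked in the second PBS fish, and all 4 were absent from the second fish of day 9 and present in the other fish of that day.

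For 10 of the 86 genes, other contigs of the same gene were listed as well. There were 13 of these, with 28 listings over the 3 days, of which 0 were raised. Of the 457 contigs listed on all 3 days, 342 were lowered and 114 were raised on all 3. Only 6 of the 13 were listed on all 3 days, so these numbers are no matched background for the 28 listings. Contigs of one gene can share reads, so the count of 0 is a description and was not tested. The second isoform of DN103109_c2_g3, chosen after its values were seen, had 186, 192, 166 and 224 reads in the PBS fish, and its exposed fish had 17, 17 and 20 on day 1. Those of day 6 had 18, 14 and 10, and those of day 9 had 38, 32 and 66. It thus kept reads in all 9 exposed fish, while the member of the same gene had none until day 9. The other isoform of DN80637_c0_g1, chosen likewise, was also the more abundant one, with 1345, 1420, 1187 and 1050 reads in the PBS fish, and its exposed fish had 236, 230 and 107 on day 1. Those of day 6 had 14, 8 and 1, and those of day 9 had 10, 0 and 73. Beside it, the member of that gene had 2, 0 and 14 reads on day 9, highest in the same fish. Of the 11 such contigs listed on day 6, 4 were without reads that day. No share over all contigs listed that day is given beside it, so this count is a description only.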

How the data were processed

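Livers of 13 whitefish were analysed, each 1 library of 1 fish, grouped by their labels. The authors trimmed reads with Trimmomatic 0.36, assembled them de novo, filtered contigs by abundance with RSEM and counted reads per contig with SAMtools, and the counts were deposited unnormalized in 3 tables, 1 per day, each with the same PBS fish. Both mates of a pair are counted, and no use of strand is described. Intervals and floors cover counting error only and treat reads as independent. They therefore understate that error, and the bounds may be too high. The tables list only contigs past the authors' DESeq2 1.28.0 test of MC-LR against PBS. They also hold a signal column, the authors' mean normalized count over 7 fish, and the authors' fold changes, standard errors, statistics and p-values, which were not used. The listed contigs held 109901 to 231470 reads per library in the table of day 1, 979744 to 2100955 in that of day 6 and 787813 to 995539 in that of day 9, which is not the library depth. 0 count columns belonged to other samples, and 0 contig IDs matched the RefSeq gene table, so no sequence is shown.

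Size factors were recovered from the deposited mean signal. The tables of days 6 and 9 were brought to the scale of day 1 by the shared PBS fish, with factors of 1.10 and 1.23. Day 9 was compared with day 1 by edgeR 4.0.16 (R 4.3.3) in 10 fish, group as the only term, after the code was tested on simulated data, and SE is the log2 fold change over the square root of F. Alternatives were scaling by clean reads or TMM, DESeq2 1.42.0, a filter on low counts, only the MC-LR fish, the replicate number as a block, contigs listed on all days, other day 6 limits and leaving out each fish. Named contigs were the 2 highest in PBS fish and the 2 of smallest p among those higher on day 9, and others are marked where named. Members, lists and tests were chosen with earlier results of these data known.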

Additional observations from a re-analysis of the deposited data

Results flagged for a closer look

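Single values that stood far from the rest of their group were looked for in the 4 PBS fish, where chance marks about 1 group in 20. The values searched were the members' sum, with and without DN89469_c3_g1_i4, and each member named by rule or called lower on day 9. Other members were not searched. The summed normalised count of the members was 10553 in the first PBS fish, beside 9175, 9354 and 9287 in the others, and its gap to the nearest was 0.870 of the range, above Dixon's 95% critical value for 4 values. Without DN89469_c3_g1_i4 the sums were 7392, 8919, 8975 and 6804 and no fish stood apart. DN59356_c0_g1_i1 reached 57.6 normalised counts in the first PBS fish, with a gap of 0.911 of the range.

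The MC-LR fish of day 9 differed from those of day 1 in 3 members by edgeR's test. The log2 fold changes were -4.93 for DN83228_c13_g1_i1, -4.49 for DN102385_c3_g2_i1 and -5.06 for DN83776_c0_g1_i3. In that order they passed in 17, 11 and 7 of 17 alternatives. Only DN83228_c13_g1_i1 passed in the fits of the MC-LR fish alone. No PBS fish of day 9 was at hand, so a change in the response to MC-LR was not tested. DN83776_c0_g1_i3 has no read on day 9, so its fitted value depends on the prior count and is no bound.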

How the results depend on the processing

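With up to 3 reads allowed over the fish of day 6 the rule found 143 contigs, and leaving out each fish in turn it found 91 to 117. The summed normalised count in PBS fish was 8023 without DN89469_c3_g1_i4, an alternative added after the data were seen, and 9272 to 9731 without single fish. It was 249 to 399 on day 1 and 85.4 to 256 on day 9 without single fish, and 2157 and 1291 with TMM, whose factors came from listed contigs alone, all of them past the authors' test. Silent members numbered 24 to 38 on day 1 and 18 to 47 on day 9 without single fish, beside 22 and 15 with all fish. Leaving out a fish can only keep or raise these numbers.

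Members called lower on day 9 numbered 3 in the main fit (15 of all contigs). They numbered 1 with clean reads, 9 with DESeq2 and 1 with only the MC-LR fish (10, 43 and 19 of all contigs). Without single fish they numbered 1 to 10. There were 10 without the third fish of day 9 (64 of all contigs) and 5 without the third fish of day 1. Leaving out the second fish of day 1, or the first or second of day 9, left 1. The counts given over all contigs moved with the setting as well. Called higher was 1 with clean reads (36 of all contigs) and 0 without any single fish. With the replicate number as a block, 1 member was called lower. Where no count over all contigs is given, the member counts are a description only. The numbers label different fish on each day, so the main fit used no pairing. The correlations of same-numbered fish were -0.05, -0.32 and -0.41, which with 3 fish per group cannot decide on pairing. In the fits of MC-LR fish alone, the 8 members without reads on days 1 and 9 could not be fitted. The log2 fold change of DN89469_c3_g1_i4 ran from -2.67 to 0.58 without single fish, the latter without the second fish of day 1. The causes were not tested. Of 197 pairs of a result and an alternative, 163 were labelled the same. For single contigs this meant the same direction and side of the threshold. Summed counts had to move by less than 1 SD between fish, which on day 9 is nearly the mean itself. Numbers of members had to stay within a fixed ratio of the main value, a loose limit for small numbers. The number found by the rule could not fall when a fish was left out, so its labels there say little. Depth limits most the members under 20 normalised counts in PBS fish, of which there were 7.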

Other observations

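The 4 PBS fish differed in different ways from member to member. DN79179_c0_g1_i1 had 6, 7, 75 and 49 reads in the PBS fish and DN98896_c6_g1_i2 had 19, 34, 66 and 182, with the last 2 fish above the first 2 in both. DN79960_c4_g4_i2 with 159, 227, 272 and 33 reads and DN100171_c2_g3_i1 with 172, 126, 261 and 28 reads were low in the fourth fish alone. These 4 members were picked after their values were seen, and their spread was not tested.

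The members made up 14.1% of the PBS reads of all contigs lowered on all 3 days, 5.19% of those of day 1 and 4.11% of those of day 9. They were chosen for having none on day 6.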
